A study of Arabidopsis thaliana with 2 samples.

Results

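The genes described here act in active DNA demethylation in Arabidopsis thaliana, and were chosen by name or locus: DME (AT5G04560), ZDP (AT3G14890), IDM3 (AT1G20870) and APE1L (AT3G48425). DME had 3 probe sets and each of the others had 1, which gave 6 of the 22746 probe sets analysed. The study compared whole 15-day seedlings of the accession C24 with seedlings of ros1-1, a line in the C24 background in which the DNA demethylase gene ROS1 is mutated. Both were grown on MS medium at 22 °C with 16 h of light and 8 h of darkness. Each genotype was measured on 1 Affymetrix array, so there were no replicates, no test was run, and every difference below describes these arrays alone. The labels do not say how many plants went into each RNA sample.

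Active demethylation removes methylated cytosine by base excision. A family of bifunctional DNA glycosylases, which in Arabidopsis includes ROS1 and DME, cuts the methylated base out and nicks the strand, leaving a gap with a blocked end. ZDP, a DNA phosphatase, and APE1L, an endonuclease, clean that end so that the gap can be filled and sealed. IDM3, a protein with an alpha-crystallin domain, belongs to a complex with a histone acetyltransferase that helps the demethylase reach its target loci. DME is best known for activating imprinted genes in the central cell before fertilisation, and ROS1 for protecting genes from silencing in vegetative tissue.

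All 3 probe sets of DME had a lower signal in ros1-1 than in wild type, and the probe sets of ZDP, IDM3 and APE1L each had a slightly higher one. None of the differences of DME and ZDP reached 1.5-fold. The signal is the authors' MAS5 summary of a probe set, in linear intensity units. The floor below which signals were not read as ratios was 132, the 40th percentile over the pooled signals of the pair of arrays. DME and ZDP were above it on both arrays, while IDM3 and APE1L were below it on both, so for IDM3 and APE1L only the direction of the signals is given. Of the 14126 probe sets that reached the floor on at least 1 array, 0.205% had a signal in ros1-1 at least 2-fold above that in C24, and 0.241% at least 2-fold below it. At 1.5-fold the shares were 1.85% and 1.95%. None of the 4 demethylation probe sets above the floor was among them.

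**Figure D1:**
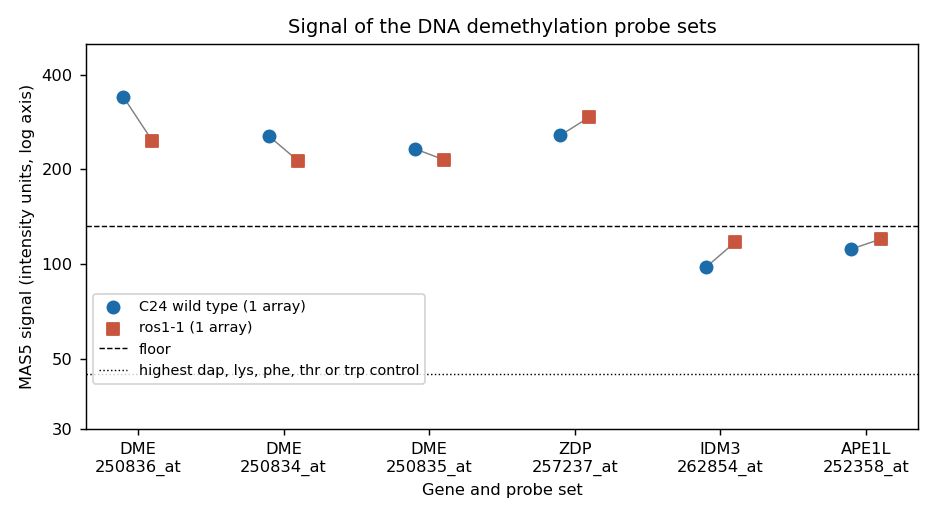
MAS5 signal (log axis, intensity units) of each demethylation probe set on the C24 wild-type array (circles) and the ros1-1 array (squares), 1 array each. The dashed line is the floor of 132 and the dotted line the highest signal of the dap, lys, phe, thr and trp control probe sets, 44.8; the 3 DME probe sets slope down, and IDM3 and APE1L lie between the lines.

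The complex that guides demethylation was represented by IDM3. Its probe set, 262854_at, read 97.8 in C24 and 117.6 in ros1-1, under the floor on both arrays. On the wild-type array it ranked 14870th, at percentile 34.6, meaning that 34.6% of the other probe sets were dimmer. On the ros1-1 array it ranked 14160th, at percentile 37.7. No fold is given for a pair of values under the floor, but the signals were above those of all 27 control probe sets for the bacterial genes dap, lys, phe, thr and trp. Those controls lay between 1.16 and 44.8 on the 2 arrays. Most probe sets exceeded them: a signal of 45.4 on the ros1-1 array, that of AT4G12740, was only at percentile 22.0. Being brighter than these controls therefore does not show that IDM3 was expressed.

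Excision was represented by DME, a glycosylase of the same family as ROS1. Probe set 250836_at read 339.6 in C24 and 246.1 in ros1-1. That is 1.38-fold lower in ros1-1, a log2 ratio of -0.46. This was the furthest from equality of the 4 demethylation probe sets above the floor. Probe set 250834_at had signals of 255.1 and 212.9, 1.20-fold lower, with a log2 ratio of -0.26. Probe set 250835_at had signals of 232.7 and 214.9, 1.08-fold lower, with a log2 ratio of -0.12. The direction was thus shared by the 3 probe sets, but the size ran over a range of 0.35 on the log2 scale.

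The mean log2 ratio of DME over its probe sets was -0.28 ± 0.18 (SD over 3 probe sets of 1 gene, not over plants). Their summed signal was 827 in wild type and 674 in ros1-1, a log2 ratio of -0.30. These probe sets were hybridised with the same RNA, so their shared direction is not independent evidence. The gene table lists AT5G04570 and AT5G04580 as further names of DME, so the locus once carried more than 1 gene model. The sources used here do not say which stretch of DME each probe set covers. Only 1 other gene, AT2G27900, had 3 single-gene probe sets that passed the floor in both genotypes, with log2 ratios from -0.17 to 0.07.

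The end-processing step was represented by ZDP and APE1L. The ZDP probe set, 257237_at, read 256.5 in C24 and 293.1 in ros1-1. It was 1.14-fold higher in ros1-1, a log2 ratio of 0.19. Its direction was opposite to that of DME, and its size was within that of the DME probe sets. APE1L, measured by 252358_at, had signals of 111.9 and 120.2, under the floor on both arrays. Like IDM3 and most probe sets, it was brighter than each of the dap, lys, phe, thr and trp controls, and it is given here as signals with no fold.

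**Figure D2:**
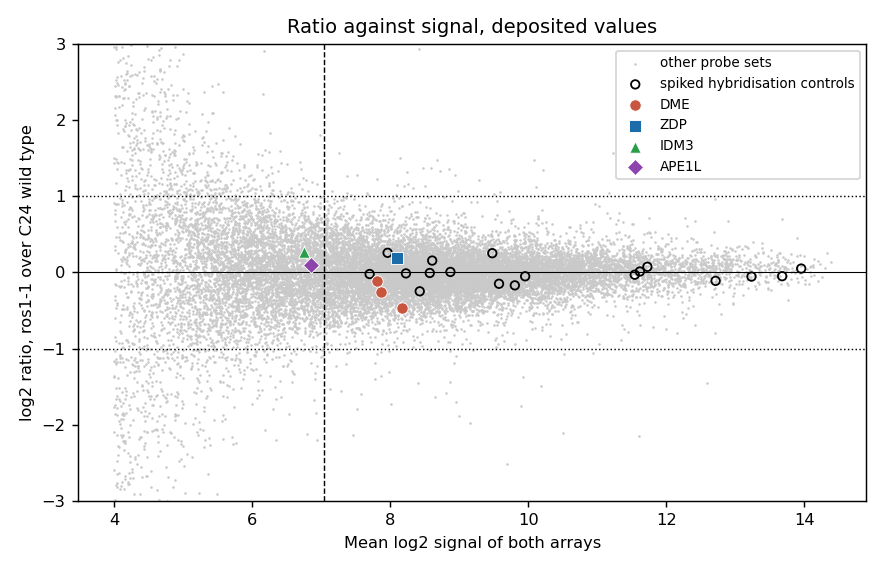
Log2 ratio of the deposited signals, ros1-1 over C24 wild type, against the mean log2 signal of both arrays; each point is 1 probe set, the dashed line is the floor and the dotted lines mark 2-fold. Probe sets with a mean log2 signal under 4 or a log2 ratio beyond 3 in either direction are not drawn. The demethylation probe sets lie inside the cloud of other probe sets, and DME 250836_at, at -0.46, and 250834_at, at -0.26, lie below the lowest spiked control, at -0.25.

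Ranks within each array are another view of the same signals, so their moves repeat the pattern above and are not independent of the ratios. DME 250836_at ranked 8878th in C24 and 10609th in ros1-1, a move from percentile 61.0 to 53.4. DME 250834_at moved from rank 10471 to 11366, or percentile 53.97 to 50.03. DME 250835_at moved from rank 10970 to 11321, or percentile 51.8 to 50.2. In ros1-1 the 3 probe sets of DME therefore lay closer together, between percentiles 50.03 and 53.4, near the middle of the array. ZDP moved the other way, from rank 10452 to 9628, or percentile 54.1 to 57.7. APE1L went from rank 14350 to 14064, or percentile 36.9 to 38.2. A rank also reflects how strongly a probe set binds its target, so it does not order the amounts of the transcripts of different genes.

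**Figure D3:**
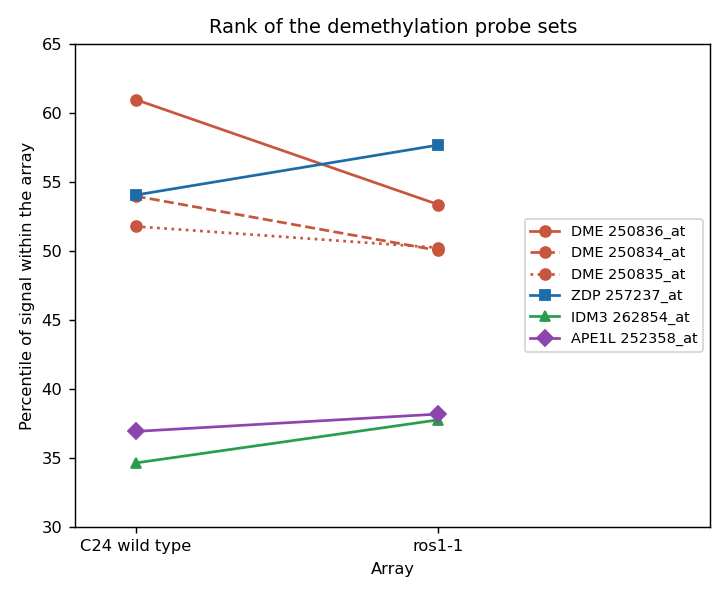
Percentile of the signal of each demethylation probe set among the 22746 probe sets of its array, on the C24 wild-type array (left) and the ros1-1 array (right), joined by a line; the axis runs from percentile 30 to 65. DME lines run down, by up to 7.61 points, and ZDP, IDM3 and APE1L run up, by up to 3.62 points.

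The size of these differences was read against probe sets of like brightness. The probe sets were divided into 10 equal steps by mean log2 signal, and DME and ZDP fell in the same step of 2275 probe sets, with signals from 214 to 324. The log2 ratios in this step had a median of -0.02 and an SD of 0.31, and the middle 90% lay between -0.50 and 0.48. All 4 DME and ZDP probe sets were inside that range. In this step 11.6% of probe sets were at least as far from equality as DME 250836_at, and 6.02% had a lower ratio. The shares at least as far from equality were 35.2% for DME 250834_at, 67.7% for DME 250835_at and 47.5% for ZDP. The ratio of 250836_at was therefore further from equality than most at its brightness, while those of 250835_at and ZDP were near the middle.

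Moves in rank, which come from the same signals, gave the same reading. In the step of DME and ZDP, the median move between arrays was 3.04 percentile points in either direction. DME 250836_at moved down by 7.61 points, and 11.9% of the step moved at least as far. ZDP moved up by 3.62 points, and 41.8% of the step moved at least as far. IDM3 and APE1L lay in a dimmer step, where log2 ratios had an SD of 0.47 and 53.0% and 80.4% of probe sets moved as far or further in rank.

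Measurement error was seen from controls and from genes with several probe sets. Of 18 probe sets for transcripts spiked into the hybridisation (bioB, bioC, bioD and cre), 7 had signals between 200 and 500 on both arrays, the range of DME and ZDP. Their log2 ratios lay between -0.25 and 0.26, with an SD of 0.16. DME 250836_at was well outside this range and 250834_at just outside it, while DME 250835_at and ZDP were inside it. This range was narrower than that of seedling probe sets of like brightness, whose log2 ratios had an SD of 0.31. Among those, 11.6% were at least as far from equality as 250836_at and 35.2% as far as 250834_at, so lying outside the control range does not set DME apart. The spiked controls carry the error of hybridisation and scanning, and not that of plants, RNA extraction or pipetting of the seedling RNA. Within 61 genes that had more than 1 probe set over the floor, single log2 ratios differed from their gene's mean by an SD of 0.19, as large as the ratio of ZDP.

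The other genes of the pathway were thinly covered. Of 15 genes in a list of active demethylation genes, 5 had a single-gene probe set, and 3 were above the floor on at least 1 array. Besides the members there was only AT4G36050, with signals of 127.9 in wild type, under the floor, and 140.8 in ros1-1. Differences of at least 1.5-fold were seen in 1.85% (higher) and 1.95% (lower) of all measured probe sets, and in 0 of the 3 measured genes. Their median log2 ratio was 0.09, against -0.01 for all measured probe sets. This median is the value of AT4G36050, a bound because its wild-type signal was raised to the floor, and the median of the deposited signals over all 5 genes was 0.14. By signal, 1 of the 5 genes was lower in ros1-1, namely DME, and 4 were higher. Over all measured probe sets 50.8% were lower and 49.2% higher. Of the genes with a higher signal, only ZDP was above the floor on both arrays, so no pattern is read from this count. ROS1, its relatives DML2 and DML3, the partners of IDM3 and the ligase of the pathway were not analysed here, since the annotation used gave none of them a single-gene probe set. The array labels were therefore not checked against the level of ROS1.

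Demethylation shares its later steps with base excision repair, the general pathway that replaces damaged bases. Of 15 genes listed for base excision and single-strand break repair, 7 had a probe set and 5 were measured. Of these 5, 0 were at least 1.5-fold different, where the shares over all measured probe sets were only 1.85% higher and 1.95% lower. The median log2 ratio of the 5 was 0.08. That median is the value of AT3G12040, a bound with its wild-type signal raised to the floor, and the median of the deposited signals over all 7 genes was 0.15. The largest ratio in this list was that of AT5G26680, with signals of 197.9 and 291.8 and a log2 ratio of 0.56, or 1.47-fold higher in ros1-1. AT3G07930 was at 0.25, with signals of 159.5 and 190.2. ATNTH1, an endonuclease III-type glycosylase that shares its fold with DME, had signals of 311.9 and 286.9 and a log2 ratio of -0.12. ATLIG4, a DNA ligase of end joining, was at -0.18. UNG, the uracil DNA glycosylase, was under the floor on both arrays, at 88.4 and 98.4. AT3G12040 had signals of 114.8, under the floor, and 139.8, and AT4G12740 was far under it at 43.5 and 45.4.

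**Figure D4:**
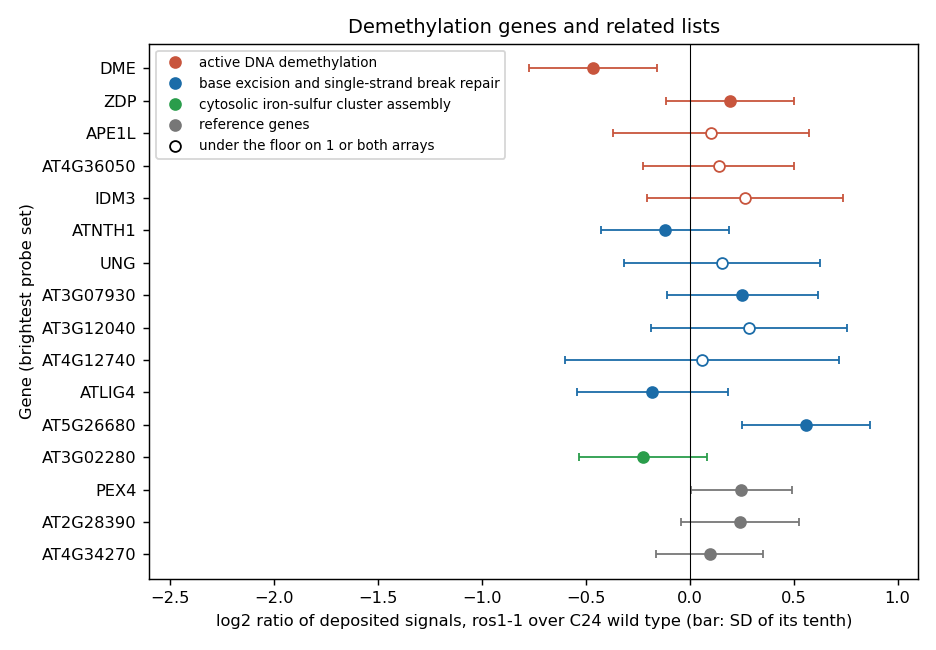
Log2 ratio of the deposited signals, ros1-1 over C24 wild type, of the brightest probe set of each gene in the lists for demethylation, repair, iron-sulfur cluster assembly and reference genes. Bars are the SD of log2 ratios among all probe sets of like signal, not a replicate error, and open points were under the floor of 132 on 1 or both arrays. DME, at -0.46, is the lowest value and AT5G26680, at 0.56, the highest.

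Glycosylases of the DME family carry an iron-sulfur cluster, which a cytosolic pathway assembles. Of 7 genes listed for that pathway, 1 had a probe set: TAH18 (AT3G02280), a flavoprotein that hands on electrons, had signals of 234.3 and 200.7 and a log2 ratio of -0.22. For the targets of DME in the endosperm, 1 of 6 genes had a single-gene probe set. MPC, an imprinted gene expressed from the maternal copy, had signals of 181 and, under the floor, 127.9, so it was at least 1.37-fold lower in ros1-1. For targets of ROS1, 2 of 4 genes had a probe set and 1 was measured. AT4G18650 had signals of 289.4 and 30.02, the second far under the floor, so it was at least 2.19-fold lower in ros1-1. Over all measured probe sets, 0.241% were at least 2-fold lower. Log2 ratios at the mean brightness of AT4G18650 had an SD of 0.47, and at that of MPC 0.36. Whether either difference follows from the ros1-1 mutation was not tested. QQS was under the floor, at 29.2 and 36.3. No member of a list of 15 genes of DNA methylation and RNA-directed silencing had a single-gene probe set.

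Genes near the members along the chromosome are given as a description, and a shift shared by a region was not tested. The nearest gene with a single-gene probe set on each side of the 4 members made 8 neighbours, 1 to 4 genes away in gene order. Of these, 7 were above the floor on both arrays. Their log2 ratios ran from -0.34 to 0.08, with 3 higher and 4 lower in ros1-1. At 1.5-fold, 0 of the 7 differed, where the shares over all measured probe sets were only 1.85% higher and 1.95% lower. The genes on either side of DME, AT5G04550 and the sulfite reductase gene SIR, had log2 ratios of 0.01 and 0.02. The neighbours of ZDP were AT3G14880, under the floor at 80.4 and 88.5, and AT3G14910 at -0.12. IDM3 lay between the tonoplast sugar transporter gene TMT1, at -0.11, and AT1G20880, at -0.30. APE1L lay between AT3G48420, at 0.08, and AT3G48440, at -0.34.

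By distance between log2 signals on the 2 arrays, the genes closest to DME 250836_at were AT5G20200, with signals of 333.8 and 243.6, and AT1G01990, with 332.2 and 248.2. Those closest to ZDP were AT1G03520, with 257.8 and 292.1, and AT3G08780, with 256.6 and 289.7. This likeness rests on 2 arrays only.

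The median signal was 216 in wild type and 213 in ros1-1, so the arrays were on one scale, and 50.8% of measured probe sets were lower in ros1-1. The reference genes PEX4 (UBC21), AT2G28390 and AT4G34270 had log2 ratios of 0.25, 0.24 and 0.10, of the size of ZDP and in its direction. Of 4 root markers, 3 had a probe set, with log2 ratios of 0.33 for EXPA7, 0.51 for EXPA18 and 0.08 for PYK10. Their summed signal was 13445 in wild type and 14296 in ros1-1, most of it from PYK10, at 13028 and 13729. All 3 were above the floor on both arrays. Of 4 leaf markers, 2 had a probe set, RCA at 0.21 and LHCB4.1 at -0.15, with summed signals of 33261 and 33922. Both organs expected in a seedling were thus present on both arrays, and seed storage markers had no single-gene probe set. The part of a shift between organs in the values of the demethylation genes was not tested. In whole seedlings, fewer cells that express a gene and less of its RNA per cell cannot be told apart.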

How the data were processed

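The authors made the deposited intensities, 1 linear value a probe set, with MAS5, per the submitters' processing notes. Its version, its scaling target and any detection calls were not stated there. The number of arrays, 1 per genotype, limits the precision. Of 22810 probe sets, 64 controls were set aside. Names came from the platform's annotation, updated by gene identifier through the TAIR10.1 gene table: 13436 of 13513 single-gene probe sets matched, 503 probe sets had several genes and 8730 had none. ZDP, IDM3 and APE1L carry only a locus code there and were matched by it.

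Signals under the floor, the 40th percentile of both arrays, were raised to it, and the log2 ratio was ros1-1 minus wild type with no further scaling. Where 1 array reached the floor, the ratio is a bound. A gene's value is that of its brightest probe set. Named were all member probe sets, members of the lists with a probe set (at most 4 a list by largest ratio; further repair genes were named after their values were seen), the nearest named gene on each side, and the 2 closest in signal. The members and lists were chosen with earlier results of these data known. Only the ratio step was tested on simulated data, with changes planted in probe sets brighter than any member and less scatter than at the members' brightness. That test does not cover the signal range of the members, nor the ranks. Python 3.11.15, numpy 2.4.6, pandas 2.3.3, statsmodels 0.14.6 and matplotlib 3.10.9 were used. Alternatives were floors at the 25th and 60th percentiles, no floor, an offset, median centring, quantile normalization, lowess with a span of 0.3, a 1.5-fold threshold, other ways to combine the DME probe sets and other pools for the ranks.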

Additional observations from a re-analysis of the deposited data

How the results depend on the processing

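The log2 ratios of the DME and ZDP probe sets kept their direction in all 25 values under the alternatives that could be computed, and 0 of these reached 1.5-fold. A floor or an offset cannot turn a ratio, so for those settings the direction was fixed by construction. In 24 of the 25 the value moved by less than 0.19, the scatter of probe sets of 1 gene. The floor at the 25th percentile and no floor could not change these values, and median centring shifted every ratio by the same small amount. With the floor at the 60th percentile, a signal of 325, DME 250836_at gave -0.064 because its ros1-1 signal was raised to the floor, and the other DME probe sets and ZDP were no longer measured. The mean of the DME probe sets gave -0.28 and their summed signal -0.30, against -0.46 for the brightest. With the floor at the 25th percentile, a signal of 54.4, or with no floor, IDM3 gave 0.27 and APE1L 0.10. Ranked among the 13436 single-gene probe sets only, all percentiles were higher: DME 250836_at was at 67.0 in wild type and 59.4 in ros1-1, 250834_at at 60.1 and 56.0, 250835_at at 57.8 and 56.2, ZDP at 60.1 and 63.8, IDM3 at 40.5 and 43.7, and APE1L at 42.9 and 44.1. All 12 moves between arrays kept their direction in both rank pools, which use the same signals. Probe sets at least 2-fold higher numbered 29, or 80 under the lower of these floors, 15 under the higher, 12 with an offset and 261 at 1.5-fold. Those at least 2-fold lower numbered 34, or 99, 19, 20 and 276. No paired analysis was possible because each genotype had 1 array, and for the same reason no replicate could be left out. Low signal limits what can be said of IDM3 and APE1L.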
